A study of Mus musculus with 52 samples.

Results

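The genes described here encode the subunits of the mitochondrial respiratory chain and of the ATP synthase, together with the few assembly factors whose names share their prefixes. They were chosen by name: every gene beginning with Nduf followed by a, b, c, s or v, Sdha to Sdhd, and all those beginning with Uqcr, with Cox4 to Cox8, with Atp5 or with the mitochondrial prefixes mt-Nd, mt-Co, mt-Cytb and mt-Atp. Pseudogene names were left out, and a mean of at least 1 TPM (a gene's share of the library's transcripts after correction for length) was required in the table. The rule took 108 genes in at least 1 of 4 expression tables and 101 in all 4, out of 56783 genes in all. The rule itself uses no measured value other than that floor, although this gene family was picked with earlier results of these data known. The floor left 103 genes in the first KA cohort, 105 in the CNO set, 107 in the second KA cohort and 104 in astrocytes, all of which were tested; 8, 6, 1 and 9 matching entries were under it.

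The respiratory chain moves electrons from NADH and succinate to oxygen through complexes I to IV, and complex V uses the resulting proton gradient to make ATP. Most of its subunits are encoded in the nucleus and imported, whereas a small core of complexes I, III, IV and V is encoded by mitochondrial DNA and transcribed inside the organelle, so an intact chain needs both genomes to be expressed together. Astrocytes use this chain to oxidise fatty acids among other fuels, and several complex IV subunits exist as paired isoforms with a general and a tissue-restricted form.

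The study measured RNA by sequencing in mouse brain and in astrocytes, all on the C57BL/6 strain, to ask how Apoe, kainic acid (KA) seizures and lipid supply bear on astrocytes in epilepsy. Astrocytes formed 9 groups of 3 libraries: Apoe knockout (APOE KO) astrocytes given neuronal conditioned medium, oleic acid or palmitic acid or left untreated, and wild-type astrocytes given medium of Apoe knockout neurons, neuronal conditioned medium, oleic acid or palmitic acid or left untreated. Brain samples came as a first KA cohort (3 KA, 3 untreated), a set given clozapine N-oxide (3 CNO, 3 untreated), in which the labels name a CNO-induced epileptic model without giving the receptor or cells it acts on, and a second KA cohort of 3 brains labelled A2aR knockdown with KA, 3 labelled APOE knock out with KA, 4 with KA and 3 untreated. The titles of the neuronal medium libraries carry "KA" without saying whether the neurons had received it, and those of untreated knockout 3 and palmitic knockout 3 carry "mix". Doses, times, age and brain region were not stated in the labels, nor was the source of the replicates. Nothing tells whether they were different mice or cultures, and the p-values cover only the variation among these libraries, which may be technical.

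Of the targeted genes, Apoe stood at 40.4, 47.1 and 43.5 TPM in untreated knockout astrocytes, against 4234, 4787 and 5024 TPM in untreated wild-type astrocytes. It stood at 58.6, 29.7 and 31.2 TPM in Apoe knockout brains with KA, against 926, 830, 1383 and 1467 TPM in KA brains. Adora2a, which encodes the A2a receptor, had 1.75, 2.15 and 1.89 TPM in the brains labelled A2aR knockdown, within the 1.95, 2.90, 1.32 and 2.26 TPM of KA brains, so its RNA did not check that label. Libraries of the second cohort summed to between 68760648 and 76643829 counts; the other tables hold TPM only, and their depth is unknown. In astrocytes, the summed TPM of 10 astrocyte markers was 77.3 to 97.8 in knockout cells with palmitic acid and 524 to 542 in untreated knockout cells, against 2196 to 2467 in untreated wild-type cells, so the knockout libraries, those with palmitic acid most, held less of these markers than the wild-type ones under the same label of astrocyte. Untreated, oleic and palmitic knockout libraries expressed Y-linked genes without Xist, and no wild-type astrocyte library did, so genotype and sex of the cells cannot be told apart there. Among wild-type astrocytes, 1 oleic acid library expressed Xist without Y-linked genes. All other wild-type libraries, the untreated ones included, had both or neither. In the second brain cohort the 3 untreated brains expressed Xist and all others Y-linked genes, so KA and sex cannot be told apart in KA against untreated, while both groups expressed Y-linked genes in the comparisons of Apoe knockout and of the A2aR label with KA brains.

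The mitochondrial genes needed a look at sequence first, because part of the mouse mitochondrial genome has been copied into chromosome 1. Between 24611535 and 24616197 on the minus strand of that chromosome (mm10, GENCODE M21), 7 pseudogenes match mt-Nd4, mt-Nd4l, mt-Nd3, mt-Co3, mt-Atp6, mt-Co2 and mt-Co1. Copy and gene were identical over the 876 aligned bases of mt-Nd4, 294 of mt-Nd4l, 783 of mt-Co3, 678 of mt-Atp6 and 681 of mt-Co2. The mt-Nd3 and mt-Co1 pairs each differed at 1 base, T3C in the 345 aligned bases of mt-Nd3 and A1066T in the 483 of mt-Co1, counted from the first base of the mitochondrial transcript, with the gene's base given first. The stretches around those bases are shown because they are the only letters, among the aligned parts of the 7 pairs, by which a read could be told to come from gene or copy; the capital marks the differing base.
mt-Nd3, chrM:9459-9521, plus strand: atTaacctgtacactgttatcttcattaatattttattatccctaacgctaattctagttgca
Gm28438, chr1:24613057-24613119, minus strand: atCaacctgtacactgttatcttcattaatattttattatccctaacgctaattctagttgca
mt-Co1, chrM:6390-6453, plus strand: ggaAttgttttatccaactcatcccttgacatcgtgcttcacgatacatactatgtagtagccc
Gm29216, chr1:24616125-24616188, minus strand: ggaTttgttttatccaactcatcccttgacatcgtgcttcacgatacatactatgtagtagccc

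The deposited values split these reads between gene and copy, and the split differed between tables. In the astrocyte table the copy held 96.1 to 100% of the summed TPM of the mt-Co2 pair, 82.8 to 98.7% of the mt-Atp6 pair and 70.1 to 84.5% of the mt-Nd3 pair. In the second cohort it held 28.9 to 50.2% of the mt-Co2 pair, 29.8 to 51.8% of the mt-Atp6 pair and 28.2 to 49.2% of the mt-Nd3 pair. In the first cohort mt-Atp6 itself was listed at 0 in all 6 libraries, with all of the pair's TPM on its copy. Single mitochondrial genes of these pairs are therefore reported with their copy added, with TPM weighted by length. Pseudogenes outside this block also share sequence: Gm13340 holds 45.2% of the 31-base words of mt-Co1, and Gm13341 holds 47.1% of those of mt-Co2. Their TPM was not added. The genes mt-Nd1, mt-Nd2, mt-Nd5, mt-Nd6, mt-Cytb and mt-Atp8 have no annotated pseudogene there. Only annotated transcripts were compared, so the bases between the pseudogenes were not examined, among them those between the copies of mt-Atp6 and mt-Co2, where mt-Atp8 lies in the mitochondrial order. mt-Atp8 overlaps mt-Atp6 over 21.1% of its bases on the same strand.

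**Figure D1:**
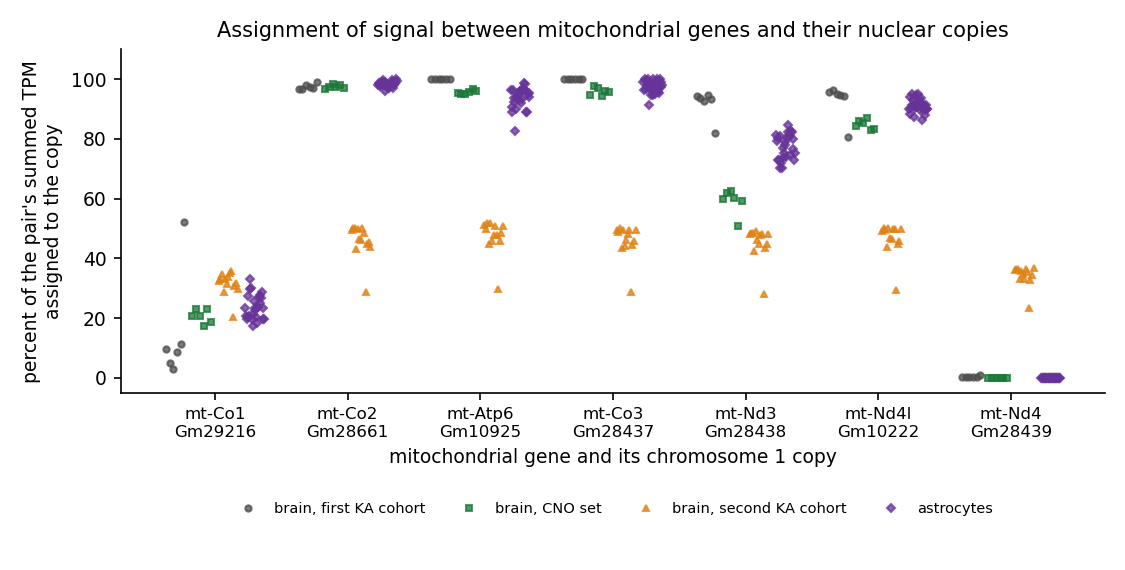
Percent of the summed TPM of each gene and its chromosome 1 copy that the deposited values place on the copy, for 7 pairs; each dot is 1 library and colours mark the 4 tables. In astrocytes the mt-Co2 copy holds 96.1 to 100% in all libraries, and in the second KA cohort 28.9 to 50.2%.

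For the nuclear genes, promoters were read from RefSeq (GRCm38.p6, 250 bases before to 50 after the transcript start), and 69 of 87 nuclear subunit genes matched by symbol. The motif of nuclear respiratory factor 1, GCGC and TGCGC with any 1 base between them, stood on either strand in 17 of them, or 24.6%, against 1402 of all 27025 promoters, or 5.19%. The ETS motif CCGGAA, which GABP binds, stood in 26, or 37.7%, against 16.7% of all promoters, and the YY1 motif AAGATGGC in 10, or 14.5%, against 3.19%. Both strands were searched for each motif, and an ETS match can share bases with a YY1 match; each was counted. At least 1 of the 3 stood in 44 of the 69, or 63.8%, against 22.2% of all promoters, with a median GC content of 58.3% in the subunit promoters and 52.7% in all. A match of letters is a description and not a bound site. Ndufa7, higher with oleic acid below, holds none of the 3 motifs, and motifs were not compared with the response to oleic acid. The promoters of 3 subunits that were higher with oleic acid below and that hold 1 motif each are shown beside that of Cox6b2, a complex IV isoform described below whose window holds none of the 3; capitals mark the motif, in the orientation in which it reads on the gene's strand.
Atp5g3, chr2:73911277-73911576, minus strand: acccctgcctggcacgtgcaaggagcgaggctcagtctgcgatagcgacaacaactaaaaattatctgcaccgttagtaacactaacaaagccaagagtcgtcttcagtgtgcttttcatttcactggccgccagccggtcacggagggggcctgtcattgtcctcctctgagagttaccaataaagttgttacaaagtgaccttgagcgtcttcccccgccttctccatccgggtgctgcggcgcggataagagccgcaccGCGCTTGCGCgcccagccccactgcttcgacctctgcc
Atp5j2, chr5:145191492-145191791, minus strand: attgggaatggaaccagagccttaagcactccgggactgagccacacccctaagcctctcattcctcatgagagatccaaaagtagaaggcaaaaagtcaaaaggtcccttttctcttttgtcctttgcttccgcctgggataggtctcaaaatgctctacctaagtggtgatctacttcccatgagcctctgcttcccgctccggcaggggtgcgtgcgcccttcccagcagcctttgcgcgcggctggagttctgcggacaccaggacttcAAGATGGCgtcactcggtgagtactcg
Uqcrh, chr4:116075021-116075320, minus strand: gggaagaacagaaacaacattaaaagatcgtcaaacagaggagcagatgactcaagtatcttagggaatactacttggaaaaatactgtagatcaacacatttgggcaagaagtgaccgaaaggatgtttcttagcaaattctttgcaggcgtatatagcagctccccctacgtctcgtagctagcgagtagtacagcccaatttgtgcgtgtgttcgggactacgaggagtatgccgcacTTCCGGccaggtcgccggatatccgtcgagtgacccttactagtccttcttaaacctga
Cox6b2, chr7:4753045-4753344, minus strand: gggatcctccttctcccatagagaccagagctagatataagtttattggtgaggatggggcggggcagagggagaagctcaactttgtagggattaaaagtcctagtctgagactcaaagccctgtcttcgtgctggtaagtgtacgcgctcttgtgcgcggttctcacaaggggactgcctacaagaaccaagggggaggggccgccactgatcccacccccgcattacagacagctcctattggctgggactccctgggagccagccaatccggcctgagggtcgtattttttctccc

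In astrocytes, oleic acid was accompanied by higher nuclear subunit transcripts and lower mitochondrial ones, in Apoe knockout and in wild-type cells alike in direction. In knockout cells 63 of 83 nuclear subunits were higher with oleic acid and 1 lower, while 7 of 13 mitochondrial mRNAs, copies included, were lower and none higher. In wild-type cells 59 of 83 were higher and 3 lower, and 13 of 13 mitochondrial mRNAs were lower. Here and below a gene is called higher or lower where limma on log2(TPM + 1), fitted to all 27 astrocyte libraries and 16161 genes, gave a Benjamini-Hochberg adjusted p under 0.05; fold changes on this scale understate the change of genes with low TPM.

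Counts over all 104 genes, here and below, take mitochondrial genes without their copies, so they can differ from counts with copies. Oleic acid had 65 higher and 7 lower in knockout cells, against 21.7% higher and 20.1% lower among all genes tested. In wild-type cells it had 62 higher and 15 lower, against 31.2% and 28.6%. The nuclear subunits had a median log2 fold change of 0.33 in knockout and 0.31 in wild-type cells, beside all-gene medians of -0.026 in knockout and 0.002 in wild-type cells. By complex, the subunits higher in knockout cells were 31 of 38 of complex I, 3 of 4 of complex II, 6 of 8 of complex III, 11 of 16 of complex IV and 12 of 17 of complex V. In wild-type cells they were 30, 3, 5, 10 and 11. Ndufb4 and Ndufb4c are counted apart in complex I, although 100% of the 31-base words of Ndufb4c are also in Ndufb4. Atp5g2 of complex V has 40.2% of its words in other genes. Nuclear genes were not corrected for shared sequence.

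Because TPM is a share of the library, the nuclear subunits were also fitted relative to nuclear genes alone with the 7 copies left out, an alternative chosen after the data were seen. Then 61 nuclear subunits were higher and 2 lower with oleic acid in knockout cells, and 50 were higher and 5 lower in wild-type cells. With median-ratio scaling the counts were 58 higher and 1 lower in knockout and 46 higher and 5 lower in wild-type cells. Markers of other cells moved in the same libraries. The 10 microglia markers summed to 912 to 1059 TPM with oleic acid against 292 to 322 untreated in knockout cells, and to 686 to 783 against 346 to 393 in wild-type cells, with none at 0 in every library. The 10 mural cell and fibroblast markers summed to 4300 to 5002 TPM with oleic acid against 6233 to 6342 untreated in knockout cells, and to 3795 to 4272 against 7574 to 8281 in wild-type cells. Astrocyte markers summed to 529 to 558 TPM with oleic acid against 524 to 542 untreated in knockout cells, and to 1137 to 1165 against 2196 to 2467 in wild-type cells. Their part in the counts above was not tested.

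The summed TPM of nuclear subunits was 29658, 28199 and 28601 in knockout cells with oleic acid, 26493, 23740 and 25053 with palmitic acid, and 23349, 23744 and 23442 untreated. It was 30593, 32812 and 30179 in wild-type cells with oleic acid, 27008, 26255 and 27486 with palmitic acid, and 24793, 25983 and 25287 untreated. In both genotypes the oleic acid libraries were above all others of that genotype in these 3 conditions. The sum of mitochondrial mRNAs with their copies averaged 75607 ± 2707 TPM with oleic acid, 40473 ± 11954 with palmitic acid and 107858 ± 2039 untreated in knockout cells, and 61579 ± 8939, 64013 ± 4328 and 104440 ± 10337 in the same order in wild-type cells (SD, n = 3 each). The ratio of mitochondrial to nuclear sums was 2.46, 2.67 and 2.74 with oleic acid and 1.03, 2.13 and 1.74 with palmitic acid in knockout cells, against 4.52, 4.61 and 4.63 untreated. In wild-type cells it was 2.19, 1.56 and 2.20 with oleic acid and 2.30, 2.63 and 2.22 with palmitic acid, against 4.53, 3.57 and 4.28 untreated. No fatty acid library reached the ratio of any untreated library, and the palmitic knockout libraries spread most. These sums describe the libraries and carry no test. In them, and in the brain sums below, TPM of genes and copies were added without weighting by length.

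**Figure D2:**
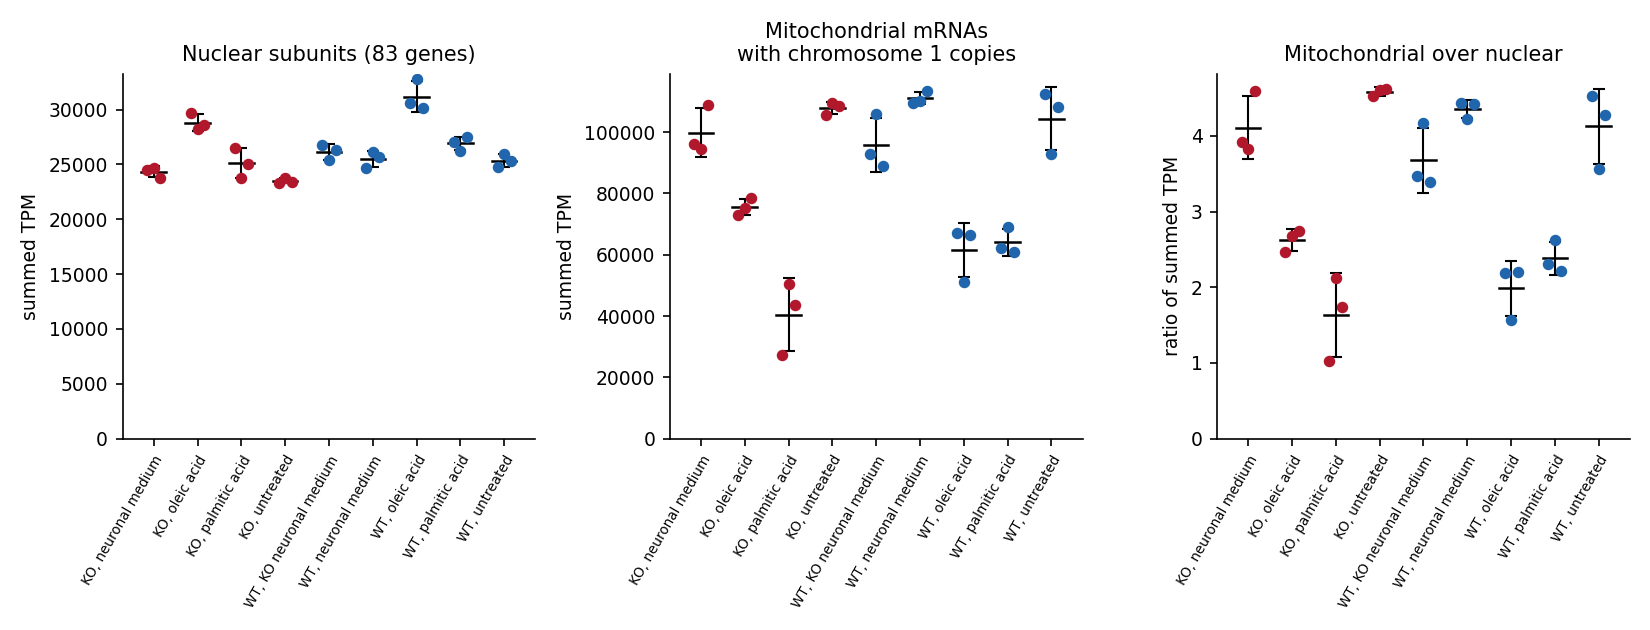
Summed TPM of nuclear subunits, of mitochondrial mRNAs with their chromosome 1 copies, and their ratio, in 9 astrocyte groups; dots are libraries, bars are mean ± SD (n = 3), red is Apoe knockout and blue wild type. All 12 fatty acid libraries have a ratio of 1.03 to 2.74, below the 3.57 to 4.63 of the 6 untreated libraries.

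Among complex I genes, Ndufb9, an accessory subunit of the membrane arm, had 280, 346 and 286 TPM in wild-type cells with oleic acid, against 188, 202 and 195 TPM untreated. The groups did not overlap, and the log2 fold change was 0.63 ± 0.07 (SE, limma adjusted p = 6.29e-08). In knockout cells Ndufv1, the NADH-binding subunit, had 118, 127 and 123 TPM with oleic acid and 86.0, 81.0 and 90.3 untreated. This was a log2 fold change of 0.51 ± 0.06 (limma adjusted p = 3.17e-06). Ndufa7, an accessory subunit, had 588, 573 and 587 TPM with oleic acid and 372, 375 and 391 untreated there. This gave a log2 fold change of 0.62 ± 0.08 (limma adjusted p = 5.43e-06).
Ndufs1, the large iron-sulfur subunit of complex I, went the other way. It had 60.8, 56.3 and 54.4 TPM with oleic acid and 80.4, 70.5 and 76.8 untreated in knockout cells (log2 fold change -0.40 ± 0.12, limma adjusted p = 0.0131). In wild-type cells it had 72.8, 54.2 and 66.9 TPM with oleic acid, against 77.5, 79.0 and 77.1 untreated. The groups did not overlap there, but the difference missed the threshold as deposited (-0.28 ± 0.12, limma adjusted p = 0.0588) and passed it under median-ratio scaling (-0.31, limma adjusted p = 0.00246).

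In complex II, the flavin subunit Sdha had 217, 194 and 216 TPM with oleic acid and 208, 206 and 205 untreated in wild-type cells, and the groups overlapped (log2 fold change 0.01 ± 0.06, limma adjusted p = 0.862). The iron-sulfur subunit Sdhb, in contrast, had 172, 201 and 166 TPM with oleic acid and 138, 148 and 143 untreated (0.33 ± 0.08, limma adjusted p = 0.00113), a call lost under median-ratio scaling (0.29, limma adjusted p = 0.0579). In knockout cells Sdhb had 176, 176 and 171 TPM with oleic acid and 125, 129 and 121 untreated (0.48, limma adjusted p = 7.41e-05).

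In complex III, the hinge protein Uqcrh had 735, 671 and 692 TPM with oleic acid and 521, 520 and 564 untreated in wild-type cells (log2 fold change 0.39 ± 0.04, limma adjusted p = 1e-07). The core protein Uqcrc1 had 276, 340 and 280 TPM with oleic acid against 213, 241 and 219 untreated (0.41 ± 0.08, limma adjusted p = 0.000121). In knockout cells the small subunit Uqcr11 had 665, 589 and 601 TPM with oleic acid and 416, 406 and 394 untreated. The log2 fold change was 0.61 ± 0.08 (limma adjusted p = 8.05e-06).
In complex IV, Cox4i1, the general form of subunit 4, had 1121, 1106 and 1068 TPM with oleic acid and 809, 807 and 790 untreated in knockout cells. It had 1117, 1381 and 1112 TPM with oleic acid against 863, 935 and 887 untreated in wild-type cells. Neither pair overlapped, with log2 fold changes of 0.45 ± 0.08 in knockout cells and 0.42 ± 0.08 in wild-type cells (limma adjusted p = 0.000138 and 0.000103). Cox4i1 shares 9.9% of its exon bases with the neighbouring Emc8.

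In complex V, Atp5a1, the alpha subunit of the catalytic head, had 635, 651 and 618 TPM with oleic acid and 511, 554 and 526 untreated in wild-type cells (log2 fold change 0.26 ± 0.04, limma adjusted p = 3.67e-06). In knockout cells it had 544, 549 and 551 TPM with oleic acid and 464, 466 and 472 untreated (0.23 ± 0.04, limma adjusted p = 6.33e-05). Atp5j2, the f subunit of the membrane part, had 312, 329 and 299 TPM with oleic acid against 200, 225 and 229 in untreated wild-type cells (0.52 ± 0.06, limma adjusted p = 4.57e-07). Atp5g3, which encodes the c subunit of the rotor ring, had 596, 596 and 573 TPM with oleic acid against 464, 468 and 482 untreated in knockout cells (0.32 ± 0.04, limma adjusted p = 6.8e-06).

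The mitochondrial genes ran opposite to these. mt-Nd1, a core complex I subunit without an annotated chromosome 1 copy, had 2644, 2516 and 2627 TPM with oleic acid and 973, 1775 and 1535 with palmitic acid in knockout cells, against 4076, 4198 and 4052 untreated. In wild-type cells it had 1689, 1314 and 1661 TPM with oleic acid and 1621, 1911 and 1664 with palmitic acid, against 3747, 3105 and 3641 untreated. No treated library overlapped the untreated libraries of its genotype. The log2 fold changes were -0.66 ± 0.15 with oleic acid and -1.57 ± 0.15 with palmitic acid in knockout cells (limma adjusted p = 0.00133 and 4.04e-09). They were -1.17 ± 0.15 and -1.01 ± 0.15 in wild-type cells (limma adjusted p = 6.85e-07 and 3.8e-06).
mt-Cytb, the cytochrome b of complex III, had 4043, 4082 and 4293 TPM with oleic acid and 949, 2606 and 2032 with palmitic acid against 6442, 6461 and 6414 untreated in knockout cells. In wild-type cells it had 3360, 2747 and 3515 with oleic acid and 3131, 3404 and 3025 with palmitic acid against 6777, 5617 and 6419 untreated. It was lower in all 4 comparisons, with log2 fold changes of -0.64 ± 0.22 with oleic acid and -1.91 ± 0.22 with palmitic acid in knockout cells, and of -0.97 ± 0.22 for each acid in wild-type cells (limma adjusted p = 0.0225, 7.1e-08, 0.000575 and 0.000511).

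Added to its copy, mt-Atp6, the proton channel subunit of complex V, had 4667, 4230 and 4435 TPM with oleic acid and 945, 3034 and 2340 with palmitic acid against 7498, 7751 and 7380 untreated in knockout cells. In wild-type cells it had 2968, 2212 and 3106 with oleic acid and 3596, 4129 and 3481 with palmitic acid against 7254, 5484 and 6910 untreated. No treated library reached an untreated library of its genotype. The log2 fold changes were -0.76 ± 0.25 and -2.0 ± 0.25 in knockout cells and -1.25 ± 0.25 and -0.80 ± 0.25 in wild-type cells, oleic acid first (limma adjusted p = 0.0206, 3.98e-07, 0.000237 and 0.00931).
The fall was smaller for mt-Co1, the catalytic subunit of complex IV. With its copy it had 16502, 12568 and 15756 TPM with oleic acid and 12528, 13002 and 12637 with palmitic acid against 17609, 16662 and 17261 in untreated wild-type cells. The log2 fold changes were -0.21 ± 0.08 and -0.43 ± 0.08 (limma adjusted p = 0.0225 and 4.68e-05). mt-Co3 with its copy missed the threshold with palmitic acid in wild-type cells (-0.37 ± 0.16, limma adjusted p = 0.052) and with oleic acid in knockout cells (-0.36, limma adjusted p = 0.0789).
mt-Nd3 differed between genotypes. With its copy it had 3558, 3272 and 3319 TPM with oleic acid and 3473, 3786 and 3292 untreated in knockout cells, against 1254, 1039 and 1337 with oleic acid and 2904, 2463 and 2841 untreated in wild-type cells. The wild-type groups were apart and the knockout groups overlapped. The difference between the oleic acid effects of the 2 genotypes, knockout minus wild type, was 1.13 ± 0.17 on the log2 scale (limma adjusted p = 3.12e-05).

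**Figure D3:**
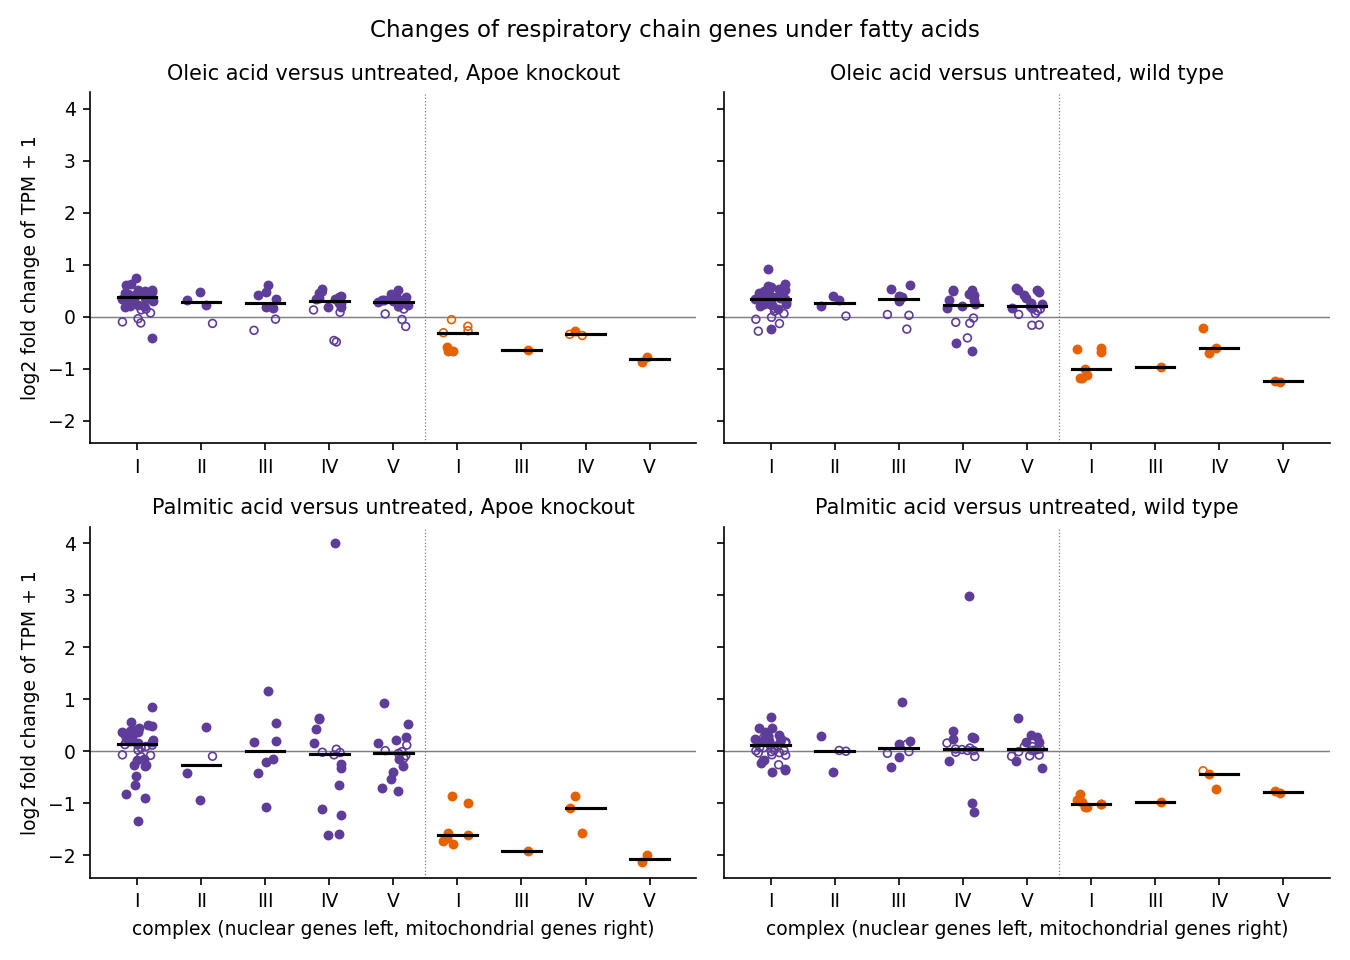
Log2 fold change of each gene, fatty acid over untreated, by complex, in Apoe knockout and wild-type astrocytes, with nuclear subunits in purple and mitochondrial genes with their copies in orange; filled points have a limma adjusted p under 0.05 and black bars are medians. With oleic acid the nuclear median is 0.33 in knockout and 0.31 in wild-type cells, and the mitochondrial median -0.36 in knockout and -0.97 in wild-type cells.

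With palmitic acid the mitochondrial mRNAs were again lower, 13 of 13 in knockout and 12 of 13 in wild-type cells with copies included and none higher, with medians of -1.61 in knockout and -0.94 in wild-type cells. The nuclear subunits split. In knockout cells 33 of 83 were higher and 29 lower (median 0.02, all genes -0.466), and in wild-type cells 28 were higher and 13 lower (median 0.06, all genes -0.084). Over all 104 genes, 34 were higher and 45 lower in knockout cells, against 19.9% and 55.4% of all genes, and 32 were higher and 24 lower in wild-type cells, against 26.8% and 33.1%.
The split depended on scaling. In wild-type cells, relative to nuclear genes without the copies, 24 of the 104 were higher and 28 lower. In knockout cells median-ratio scaling, which moved the all-gene median to -0.105, gave 69 higher and 20 lower, removal of the length trend gave 50 higher and 31 lower, and the scaling to nuclear genes without the copies gave 23 higher and 52 lower. Under median-ratio scaling the mitochondrial median in knockout cells was still -1.07, with 9 genes lower and none higher before copies were added. Beside these counts, the cytosolic ribosomal protein genes summed to 170244 to 191642 TPM in palmitic knockout libraries, against 102084 to 104324 in untreated knockout libraries, and 10 microglia markers to 27.2 to 36.2 TPM against 292 to 322, with P2ry12 at 0; their part in the result was not tested. In bulk RNA, fewer cells of a type and less RNA per cell cannot be told apart.

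Several nuclear genes kept their sign with palmitic acid in both scalings. Uqcrq, a small subunit of complex III, had 975, 745 and 868 TPM with palmitic acid and 365, 384 and 400 untreated in knockout cells. It had 702, 733 and 762 TPM with palmitic acid against 379, 421 and 345 untreated in wild-type cells. The groups did not overlap in either genotype, and the log2 fold changes were 1.16 ± 0.09 in knockout and 0.94 ± 0.09 in wild-type cells (limma adjusted p = 2.84e-10 and 1.22e-08), with 1.69 in knockout cells under median-ratio scaling. Atp5g1, another gene of the c subunit, had 361, 361 and 397 TPM with palmitic acid and 228, 257 and 231 untreated in wild-type cells (0.64 ± 0.09, limma adjusted p = 1.24e-06). In knockout cells it had 520, 428 and 457 against 252, 230 and 253 (0.93 ± 0.09, limma adjusted p = 3.39e-09).
On the lower side, Sdha had 83.1, 107 and 96.2 TPM with palmitic acid and 181, 179 and 184 untreated in knockout cells. It had 158, 155 and 155 TPM with palmitic acid against 208, 206 and 205 untreated in wild-type cells. Its log2 fold changes were -0.93 ± 0.06 in knockout and -0.40 ± 0.06 in wild-type cells (limma adjusted p = 2.49e-11 and 1.13e-05), with -0.40 in knockout cells under median-ratio scaling. Sdhb rose in the same libraries, by 0.48 ± 0.08 in knockout and 0.30 ± 0.08 in wild-type cells (limma adjusted p = 1.12e-05 and 0.00224). Ndufs1 had 21.6, 36.8 and 32.0 TPM with palmitic acid against 80.4, 70.5 and 76.8 in untreated knockout cells. This was a log2 fold change of -1.34 ± 0.12 as deposited (limma adjusted p = 3.11e-09) and -0.82 under median-ratio scaling. Atp5a1 changed sign with scaling in knockout cells, at -0.29 ± 0.04 as deposited (limma adjusted p = 4.82e-07) and 0.24 under median-ratio scaling (limma adjusted p = 0.0145), so no direction is given for it there.

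The restricted isoforms of complex IV did not move together. Cox6a2, the form of subunit 6a used in heart and skeletal muscle (chromosome 7, 128205435 to 128206387, minus strand), had 18.8, 19.7 and 22.6 TPM with palmitic acid in knockout cells and 9.02, 12.8 and 10.5 in wild-type cells, against 0.3, 0.170 and 0.500 in untreated knockout and 0.530, 0.340 and 0.570 in untreated wild-type cells. Every palmitic acid library was above every other astrocyte library, whose highest value was 1.10 TPM, in a knockout library with oleic acid. The log2 fold changes were 4.01 ± 0.16 in knockout and 2.98 ± 0.16 in wild-type cells (limma adjusted p = 2.37e-15 and 6.7e-13), and the difference between them was 1.03 ± 0.23 (limma adjusted p = 0.000598). The gene overlaps the opposite-strand Itgad over 10.3% of its exon bases, and strand use in counting was not stated; Itgad stood at 0 to 0.02 TPM in the palmitic acid libraries. Summed over 10 muscle markers, the palmitic acid libraries had 1.3 to 3.70 TPM in knockout and 4.11 to 5.98 in wild-type cells, against 6.46 to 8.60 in untreated knockout and 10.9 to 11.9 in untreated wild-type cells, so the muscle list was lower where Cox6a2 was higher. Cox6a1, its general partner, had 1088, 896 and 993 TPM with palmitic acid and 732, 721 and 761 untreated in knockout cells, so the muscle form remained a small part of the pair.

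Cox6b2, the form of subunit 6b known from testis (chromosome 7, 4751792 to 4753094, minus strand), was expressed in every astrocyte library and differed between most groups. It had 349, 381 and 350 TPM with neuronal medium, 247, 234 and 226 with oleic acid, 67.1, 51.4 and 58.0 with palmitic acid and 180, 187 and 167 untreated in knockout cells. In wild-type cells it had 424, 404 and 411 TPM with medium of Apoe knockout neurons, 470, 513 and 540 with neuronal medium, 301, 393 and 299 with oleic acid, 257, 241 and 280 with palmitic acid and 509, 520 and 523 untreated. Untreated knockout libraries lay below all wild-type libraries, and among the 9 groups palmitic knockout cells were lowest and untreated and neuronal medium wild-type cells, which overlapped, highest.
Knockout over wild type, untreated, gave a log2 fold change of -1.54 ± 0.09 (limma adjusted p = 8.54e-12). Oleic acid went with higher Cox6b2 in knockout cells (0.41 ± 0.09, limma adjusted p = 0.00177) and lower Cox6b2 in wild-type cells (-0.65 ± 0.09, limma adjusted p = 3.88e-06), and the difference between these effects, knockout minus wild type, was 1.06 ± 0.13 (limma adjusted p = 2.12e-06). Palmitic acid went with lower Cox6b2 in knockout (-1.59 ± 0.09, limma adjusted p = 1.83e-12) and wild-type cells (-0.99 ± 0.09, limma adjusted p = 6.08e-09). Its general partner Cox6b1 was higher with oleic acid in wild-type cells, at 822, 871 and 857 TPM against 541, 639 and 619 untreated (0.51 ± 0.07, limma adjusted p = 2.65e-06).
Cox7a1, the heart and muscle form of subunit 7a, had 6.09, 6.99 and 9.38 TPM in untreated knockout and 23.8, 21.2 and 30.0 in untreated wild-type cells (-1.62 ± 0.40, limma adjusted p = 0.00206). With palmitic acid it had 6.39, 12.1 and 14.6 TPM in wild-type cells, also below untreated (-1.17 ± 0.40, limma adjusted p = 0.0155). Cox4i2, the restricted form of subunit 4, was not called with oleic acid in either genotype or with palmitic acid in wild-type cells. It was lower with palmitic acid in knockout cells, at 0.57 to 0.96 TPM against 2.14 to 4.18 untreated (-1.11 ± 0.32, limma adjusted p = 0.00384). Cox8b, another muscle form, was listed at 0 in all 27 astrocyte libraries, and Ndufa4l2 and Cox8c were under a mean of 1 TPM.

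**Figure D4:**
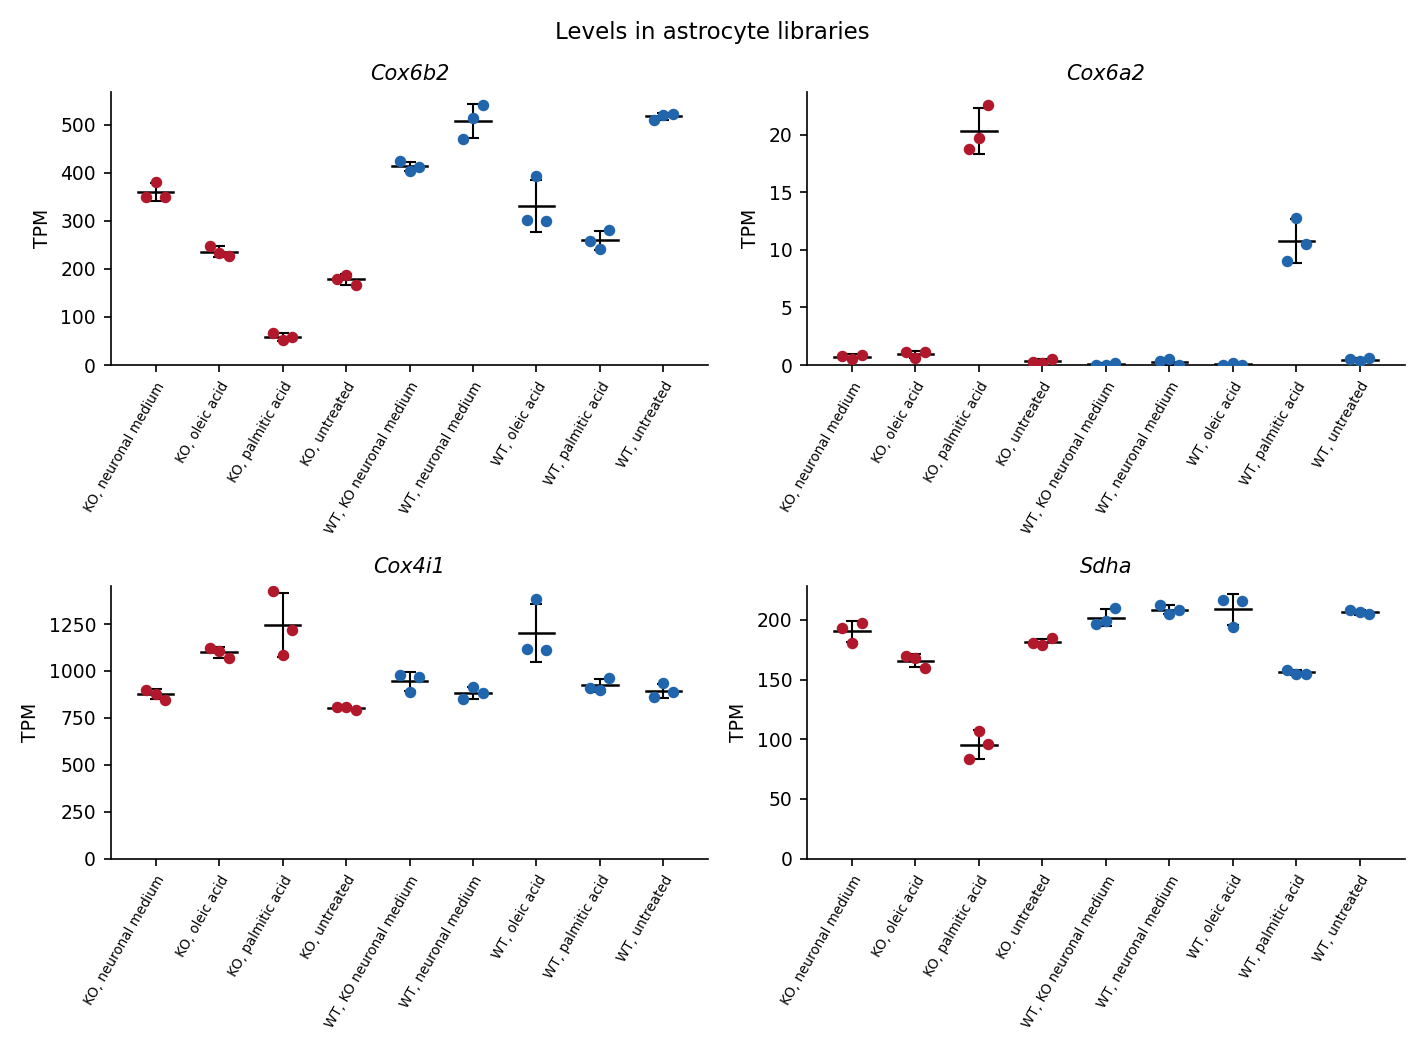
TPM of Cox6b2, Cox6a2, Cox4i1 and Sdha in each library of 9 astrocyte groups, with Apoe knockout in red and wild type in blue. Cox6a2 reaches 9.02 to 22.6 TPM in the 6 palmitic acid libraries and at most 1.10 TPM in the other 21.

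Set directly against each other, oleic acid libraries had a higher summed TPM of nuclear subunits than palmitic acid libraries of the same genotype, as given above. The counts that follow take nuclear subunits, assembly factors and mitochondrial genes together. Oleic acid is a monounsaturated fatty acid and palmitic acid a shorter saturated one; doses and times were not stated, so the 2 comparisons hold for the cultures as labelled. In wild-type cells 52 of 104 genes were higher with oleic acid and 11 lower, against 32.4% and 25.8% of all genes, but 19 were higher and 13 lower under median-ratio scaling and 25 and 14 with the length trend removed. In knockout cells 71 were higher and 6 lower, against 53.7% and 16.0% of all genes, but 15 were higher and 37 lower under median-ratio scaling and 26 and 22 with the length trend removed; the all-gene median was 0.408 as deposited and 0.057 after median-ratio scaling. No direction over the 104 genes in knockout cells therefore holds across scalings.
In wild-type cells Uqcrh was among the genes called higher under both scalings, at 735, 671 and 692 TPM with oleic acid and 429, 425 and 450 with palmitic acid. This was a log2 fold change of 0.68 ± 0.04 as deposited (limma adjusted p = 9.88e-12) and 0.59 after median-ratio scaling (limma adjusted p = 9.12e-07). In knockout cells its sign turned, at 0.33 ± 0.04 as deposited (limma adjusted p = 5.99e-07) and -0.18 after median-ratio scaling (limma adjusted p = 0.0432). As deposited, Cox6a2 was lower with oleic acid by the same -3.48 ± 0.16 in both genotypes (limma adjusted p = 2.49e-14 in knockout and 9.18e-14 in wild-type cells). In knockout cells 13 of 13 mitochondrial mRNAs with copies were higher with oleic acid than with palmitic acid as deposited (median 1.12), whereas in wild-type cells 3 were higher and 1 lower. The knockout count and median include the all-gene shift of 0.408, which was 0.057 after median-ratio scaling. Their values after that scaling are not given here.

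Without any treatment, 2 of 104 genes were higher and 24 lower in Apoe knockout than in wild-type astrocytes, against 23.9% higher and 21.1% lower among all genes. Of the nuclear subunits 22 of 83 were lower and none higher (median -0.10, all genes 0.050); median-ratio scaling gave 14 lower and none higher. Apart from Cox6b2 and Cox7a1 the changes were small and the libraries tight. Uqcrfs1, the Rieske iron-sulfur protein of complex III, had 122, 118 and 123 TPM in knockout and 150, 152 and 149 in wild-type cells (-0.31 ± 0.04, limma adjusted p = 1.07e-06). Atp5md, a small ATP synthase subunit, had 655, 667 and 675 TPM in knockout and 838, 848 and 838 in wild-type cells (-0.34 ± 0.06, limma adjusted p = 3.68e-05), and Ndufb10, an accessory complex I subunit, had 209, 206 and 213 against 266, 283 and 254 (-0.35 ± 0.06, limma adjusted p = 7.57e-05). Both groups were apart in all 3 genes. Of the 2 genes called higher, mt-Co2 was not once its copy was added (0.16 ± 0.16, limma adjusted p = 0.426), and the assembly factor Ndufaf2 (61.4, 62.4 and 63.0 TPM in knockout, 54.3, 47.9 and 48.1 in wild-type cells) is uncertain, since 65.6% of its exon bases overlap the opposite-strand B230220B15Rik.

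Neuronal conditioned medium left most of these genes within the spread of the libraries. In wild-type cells limma called 0 of 104, against 0.0371% of all genes in either direction. Before adjustment 4 of 104 passed 0.05, 2 in each direction, against 6.38% of all genes. Medium of Apoe knockout neurons against ordinary neuronal medium gave 0 of 104 in wild-type cells, against 1.42% of all genes. Unadjusted, 6 were higher and 1 lower, against 12.9% of all genes in either direction; 1 gene was called when wild-type neuronal medium 3 was left out. In knockout cells 13 were higher and 1 lower with neuronal medium than untreated, against 18.7% and 12.6% of all genes; median-ratio scaling left 1 higher and 1 lower, and scaling to nuclear genes without the copies gave 11 higher and 3 lower. Leaving out knockout medium 1 or knockout untreated 2 left 8 called genes in all, and leaving out knockout untreated 1 left 9. The gene that held was Cox6b2, at 349, 381 and 350 TPM with medium against 180, 187 and 167 untreated (1.01 ± 0.09, limma adjusted p = 1.94e-08), and the assembly factor Ndufaf5 was the lower one (-0.27 ± 0.09, limma adjusted p = 0.0253). Astrocyte markers summed to 1228 to 1330 TPM in these medium libraries, against 524 to 542 in untreated knockout libraries; their part in the result was not tested. The knockout medium libraries also lacked the pattern of Y-linked genes without Xist that the untreated knockout libraries had, so medium and sex of the cells cannot be told apart in this comparison.

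The interaction of genotype and treatment was tested in the same fit, as the effect in knockout minus that in wild-type cells. For neuronal medium 3 genes were higher and none lower, against 11.6% and 6.95% of all genes (1 and 0 under median-ratio scaling, 1 and 1 with the length trend removed), with Cox6b2 at 1.04 ± 0.13 (limma adjusted p = 5.02e-06); 6 were called without knockout medium 3 and 5 without wild-type untreated 1. For oleic acid 7 were higher and 2 lower, against 13.8% and 15.8% (8 and 0 under median-ratio scaling, 4 and 2 with the length trend removed). For palmitic acid 16 were higher and 39 lower, against 14.3% and 43.2%, but median-ratio scaling gave 47 higher and 10 lower and length correction 30 and 24; the all-gene median was -0.348 as deposited and 0.012 after median-ratio scaling.
Of single genes, Cox7a2l had 384, 318 and 349 TPM with palmitic acid and 222, 230 and 221 untreated in knockout cells. In wild-type cells it had 205, 192 and 203 with palmitic acid and 224, 236 and 224 untreated. It was thus above untreated in the knockout libraries alone, with an interaction of 0.83 ± 0.07 (limma adjusted p = 6.09e-09). The complex I assembly factor Ndufaf5 had 14.4, 17.0 and 16.7 TPM with palmitic acid and 20.4, 18.9 and 18.8 untreated in knockout cells, against 32.7, 33.4 and 32.1 with palmitic acid and 19.9, 16.2 and 15.4 untreated in wild-type cells. The interaction was -1.16 ± 0.13 (limma adjusted p = 1.71e-07).

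Genes of the wider pathway were taken from lists of assembly factors, electron carriers, regulators and neighbours. Their counts and changes are given as deposited only, and the palmitic acid counts in knockout cells above depended on scaling. In the order oleic acid then palmitic acid in knockout cells, then the same in wild-type cells, 21.7%, 19.9%, 31.2% and 26.8% of all genes were higher and 20.1%, 55.4%, 28.6% and 33.1% lower, and 14, 11, 19 and 17 of 41 assembly factors were higher and 2, 16, 2 and 3 lower. Of 78 mitochondrial ribosomal proteins, which translate the mitochondrial mRNAs, 45, 37, 49 and 58 were higher and 0, 19, 3 and 3 lower. Of 15 genes of cytochrome c and coenzyme Q synthesis, 8, 5, 9 and 9 were higher and 2, 6, 2 and 1 lower, and of 13 tricarboxylic acid cycle genes 6, 1, 7 and 5 were higher and 2, 8, 5 and 3 lower.
Of 17 regulators of mitochondrial biogenesis 4, 5, 6 and 7 were higher and 4, 8, 3 and 2 lower. Twnk, the mitochondrial DNA helicase, was higher in all 4 comparisons, with log2 fold changes of 0.26, 0.76, 0.68 and 0.83, while Ppargc1a, a coactivator of respiratory gene transcription, was lower with palmitic acid in knockout cells (-1.92 ± 0.13, limma adjusted p = 1.51e-11). Of 84 cytosolic ribosomal protein genes, listed for comparison, 40, 73, 69 and 83 were higher and 7, 0, 1 and 1 lower.
Of 11 carriers and uncoupling genes, 2, 1, 5 and 4 were higher and 3, 7, 3 and 5 lower. Ucp2, an inner-membrane carrier named as an uncoupling protein, was higher in all 4, by 0.90 ± 0.12 with oleic acid and 1.43 ± 0.12 with palmitic acid in knockout cells and by 3.9 ± 0.12 and 3.44 ± 0.12 in wild-type cells on the log2 scale (limma adjusted p = 5.33e-06, 3.88e-10, 1.23e-16 and 3.47e-16). Microglia markers, whose cells are known for high Ucp2, summed to 912 to 1059 TPM with oleic acid and 27.2 to 36.2 with palmitic acid in knockout cells, against 292 to 322 untreated, and in wild-type cells to 686 to 783 and 755 to 870, against 346 to 393; their part in the Ucp2 result was not tested. Sco2, which delivers copper to complex IV, was higher with palmitic acid, by 2.04 ± 0.14 in knockout and 1.42 ± 0.14 in wild-type cells (limma adjusted p = 3.85e-11 and 1.97e-08). The ADP/ATP carrier Slc25a4 was lower with palmitic acid in knockout cells (-1.04 ± 0.06, limma adjusted p = 8e-13).

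In brain, none of these genes was called in any of 5 comparisons. For KA in the first cohort limma called 0 of 103, against 0.183% of all genes, with 1 gene higher and none lower at an unadjusted p under 0.05, which 13.5% of all genes passed. For CNO limma called 0 of 105, against 3.70% of all genes, with 7 higher and 2 lower unadjusted, which 16.1% of all genes passed; leaving out CNO 1 or untreated 1 gave 1 called gene each. In the second cohort edgeR's quasi-likelihood test on counts called 0 of 107 for KA over untreated, for Apoe knockout with KA over KA and for the brains labelled A2aR knockdown over KA, against 0.0558%, 0.112% and 0.0386% of all genes. Unadjusted, 5 were higher and 10 lower with KA, 20 higher and none lower in Apoe knockout brains, and 10 higher and 1 lower in the brains labelled A2aR knockdown, where 6.72%, 9.33% and 9.25% of all genes passed in either direction. DESeq2 called 0 for KA and for Apoe knockout, and mt-Co1 alone for the A2aR label (adjusted p = 0.0478). The KA brains serve both as the treated group of the KA comparison and as the controls of the other 2, so these 3 share libraries.

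Library 3 of the first untreated brains stood apart. Its nuclear subunits summed to 51948 TPM, against 28524 to 31885 in KA brains and 30730 to 31756 in the other untreated brains. Its mitochondrial mRNAs with copies summed to 183149 TPM, against 195745 to 240792 and 235197 to 240302, and its ratio was 3.53 against 6.26 to 7.81 in KA brains and 7.57 to 7.65 in the other untreated brains. Thus Cox4i1 had 1296, 1202 and 1227 TPM in KA brains and 1313, 1253 and 2311 in untreated brains, and Sdha 260, 248 and 263 against 262, 255 and 145, each with the outlying value in that library. Single mitochondrial genes in that library did not all follow the sum. With copies, mt-Co2 (34311 TPM, against 24153 to 28800 in the other brains), mt-Co3, mt-Atp6 and mt-Nd3 were highest there. With copies, mt-Nd4l (1642 TPM, against 16288 to 19721), mt-Nd4 and mt-Co1 were lowest there. The nuclear median of -0.31 and mitochondrial median of 0.11 for KA (-0.59 and -0.17 after median-ratio scaling, all genes 0.246 and -0.001) include that library; without it the count of called genes was again 0.

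The gene with the smallest p in the first KA cohort and in the CNO set was Cox7a1. It had 24.1, 18.2 and 10.5 TPM in KA brains and 5.67, 8.79 and 7.49 in untreated brains, which did not overlap (log2 fold change 1.11 ± 0.33, limma adjusted p = 0.207). It had 12.3, 16.5 and 15.9 TPM in CNO brains and 9.99, 5.76 and 5.77 in untreated brains, also without overlap (0.99 ± 0.22, limma adjusted p = 0.0543). Leaving out CNO set untreated 1 brought it past the threshold (1.22, limma adjusted p = 0.0200). In the second cohort it did not follow KA (-0.10 ± 0.52), but had 13.1, 13.3 and 13.3 TPM in Apoe knockout brains with KA against 5.94, 3.22, 4.90 and 9.42 in KA brains (1.10 ± 0.52, edgeR adjusted p = 0.539). Microglia markers summed to 1297 to 3318 TPM in KA brains against 483 to 597 in untreated brains of the first cohort and to 1178 to 1521 in CNO brains against 434 to 511. In the same order, astrocyte markers summed to 2427 to 4029 against 1400 to 1980 TPM and to 4144 to 4312 against 1942 to 2196. Mural cell and fibroblast markers summed to 164 to 178 against 91.6 to 142 and to 191 to 239 against 167 to 205. Endothelial and choroid plexus markers also lay apart in the first cohort, and overlapped in the CNO set. Muscle markers overlapped in both, at 10.4 to 17.6 against 10.3 to 16.1 and at 11.5 to 82.85 against 11.2 to 35.7. In the second cohort they summed to 166 to 193 TPM in Apoe knockout brains with KA against 15.3 to 176 in KA brains. The part of these markers in the Cox7a1 values was not tested.

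Cox6b2 and Cox6a2, which moved so widely in astrocytes, showed no called change in brain. Cox6b2 had 16.3, 13.2 and 9.30 TPM in KA brains and 9.37, 7.37 and 10.7 in untreated brains of the first cohort (0.44 ± 0.26, limma adjusted p = 0.515). It had 10.4, 11.4 and 8.59 in Apoe knockout brains with KA against 10.8, 7.36, 17.4 and 13.2 in KA brains (-0.23 ± 0.34, edgeR adjusted p = 0.917). Both pairs overlapped. Cox6a2 had 10.8, 16.0 and 13.4 TPM in CNO brains and 18.5, 19.2 and 14.6 in untreated brains (-0.36 ± 0.17, limma adjusted p = 0.354).

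In the second cohort, mt-Atp6 had 15905, 15806, 16371 and 19183 TPM in KA brains and 15269, 13327 and 12956 in untreated brains before its copy was added, without overlap. The log2 fold change was 0.30 ± 0.11 (edgeR adjusted p = 0.651). With its copy it had 30435, 32034, 31266 and 27276 TPM in KA brains against 28124, 25806 and 26320, and these groups overlapped. KA 4 placed 18.3% of its mitochondrial mRNA on the copies and the other libraries of the cohort 27.4 to 32.2%. On the nuclear side, Sdha had 309, 335, 321 and 336 TPM in KA brains and 349, 355 and 366 in untreated brains (-0.13 ± 0.06, edgeR adjusted p = 0.735). Cox4i1 had 1073, 1001, 637 and 758 against 677, 699 and 632 (0.41 ± 0.16, edgeR adjusted p = 0.690). Nuclear subunits had a median of -0.10 and mitochondrial genes of 0.15 for KA, with all genes at 0.003.
In Apoe knockout brains with KA, Ndufs1 had 180, 153 and 168 TPM against 152, 142, 130 and 143 in KA brains, without overlap (0.24 ± 0.07, edgeR adjusted p = 0.289). Nuclear subunits had a median of 0.13 and mitochondrial genes of 0.04 there, with all genes at -0.006. In the brains labelled A2aR knockdown, mt-Co1 had 29711, 29203 and 33241 TPM against 24618, 25901, 26534 and 28296 in KA brains, again without overlap (0.31 ± 0.07, edgeR adjusted p = 0.251). With its copy the log2 fold change was 0.33 ± 0.07 (edgeR adjusted p = 0.198). The mitochondrial median was 0.16 and the nuclear median 0.11, with all genes at -0.006. Of the wider pathway lists, limma called 1 carrier, 1 mitochondrial ribosomal protein and 1 cytosolic ribosomal gene, Rps27l, in the CNO set and none in the first cohort, and edgeR called none in the 3 comparisons of the second cohort. Ucp2 was higher by 1.27 ± 0.19 on the log2 scale (limma adjusted p = 0.0143), and Mrps6 by 0.74 ± 0.08 (limma adjusted p = 0.00536).

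**Figure D5:**
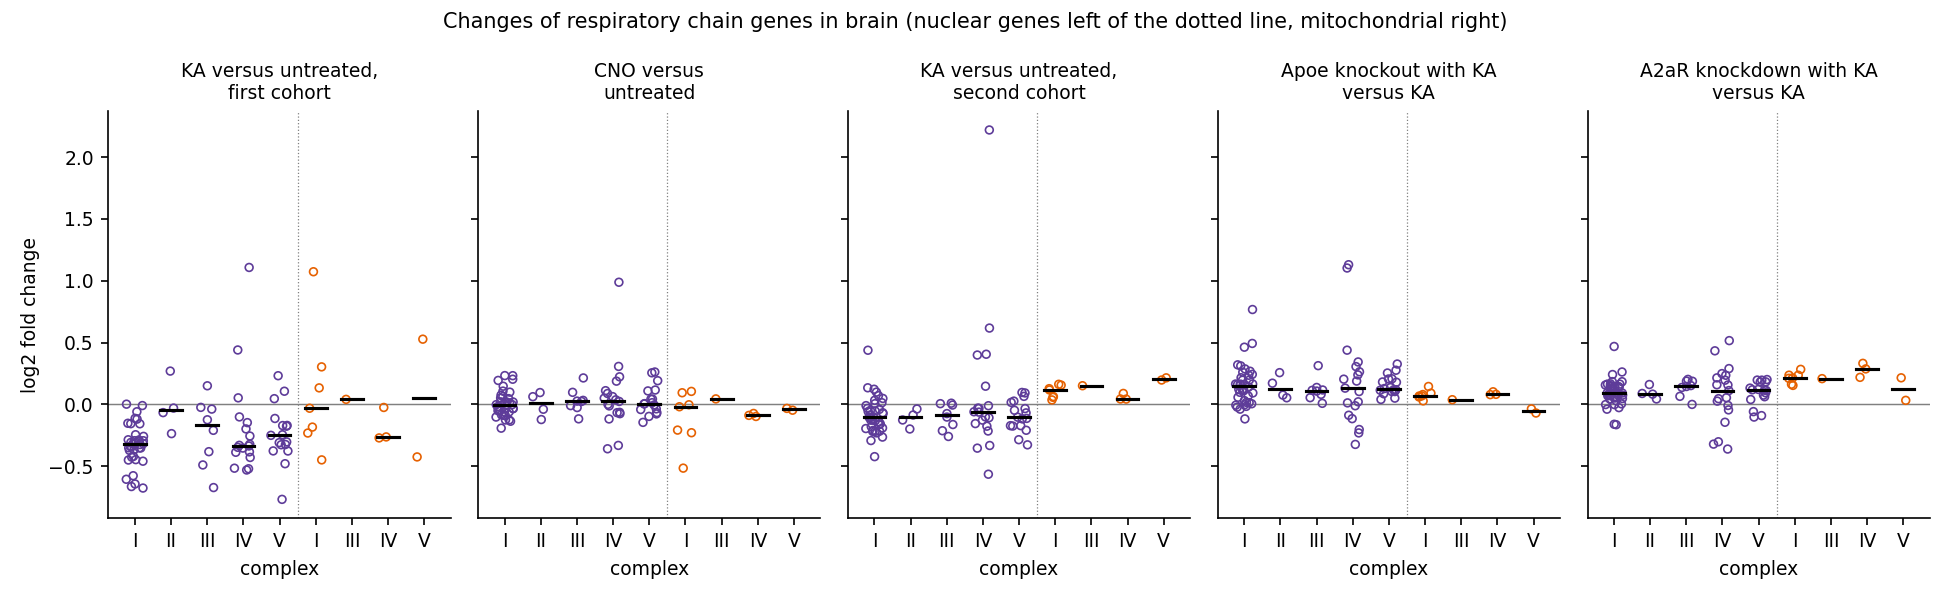
Log2 fold change of each gene by complex in 5 brain comparisons, with nuclear subunits in purple and mitochondrial genes with their copies in orange; open points have an adjusted p of 0.05 or more and black bars are medians. All points are open.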

How the data were processed

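RNA was sequenced from brain and astrocytes; per the labels' protocols, 1 ug of total RNA went into each TruSeq library. HISAT2, StringTie, RSEM and the build mm10 are named in the submitters' processing notes, without versions or roles. The authors deposited TPM for astrocytes, CNO brains and first-cohort brains, and counts with TPM for the second cohort; TPM were summed, averaged and log2-transformed here. Filters on low values, strand use and how reads matching several loci were assigned were not given in the sources used here.

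Here, TPM tables were fitted with limma 3.58.1 (R 4.3.3, log2 with a pseudocount of 1, genes reaching 1 TPM in 3 or more libraries, mean-variance trend), and second-cohort counts with edgeR 4.0.16 (quasi-likelihood test, TMM), adjusted by Benjamini-Hochberg over all genes with a threshold of 0.05. DESeq2 1.42.0 was an alternative. Scripts were tested on simulated data. The genes named were, per comparison, up to 5 higher and 5 lower with the smallest p, 8 of 9 fixed core subunits (1 gene is not reported here), 6 restricted isoforms and up to 3 per pathway list, plus partners and copies chosen after their values were seen. The members and lists were chosen with earlier results of these data known. Same-numbered CNO set libraries deviated together (r of 0.119 to 0.244, 6 of 6 closest to their own number), and blocking on the number gave 0 called genes there too. No 2 libraries were duplicates, with at most 2.49% of values identical.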

Additional observations from a re-analysis of the deposited data

Results flagged for a closer look

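Among 33 sets of 4 KA brain values from the second cohort, 6 had a library farther from the others than Dixon's 95% limit allows, where chance alone gives about 1 in 20. KA 2 had the highest Cox8b, at 4.93 TPM against 1.85, 1.25 and 1.53 TPM. KA 3 had the highest mt-Co3 with its copy, at 23275 TPM. KA 4 was farthest in 4 values that concern the chromosome 1 copies: it had the highest mt-Atp6, at 19183 TPM, the lowest mt-Nd3 with its copy, at 6323 TPM, the lowest Gm28438, the copy of mt-Nd3, at 1787 TPM, and the smallest percent of mitochondrial mRNA on the copies, at 18.3%.

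The response of knockout astrocytes differed from that of wild-type astrocytes by a test of the interaction in 3 genes for neuronal medium, 9 for oleic acid and 55 for palmitic acid of 104 (limma, adjusted p under 0.05). Among all genes, 11.6% were higher and 6.95% lower for medium, 13.8% and 15.8% for oleic acid and 14.3% and 43.2% for palmitic acid, so the shares of these genes were below or near those of all genes. For palmitic acid 16 were higher and 39 lower as deposited, against 47 and 10 under median-ratio scaling.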

How the results depend on the processing

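Over 4408 recalculated values of single genes, 4189 kept their direction and side of the threshold or moved by less than the spread, 134 lost a call, 23 gained one, 56 moved and 6 reversed. Median-ratio scaling gave 32 called genes for oleic over palmitic acid in wild-type cells, 2 for neuronal medium in knockout cells and 1 for its interaction; removal of the length trend gave 39, 7 and, for oleic over palmitic acid in knockout cells, 48. DESeq2 called 1 gene for the A2aR label. The values counted as reversed under median-ratio scaling were Atp5a1 with palmitic acid in knockout cells (0.24), Uqcrc1 (-0.29) for oleic over palmitic acid in knockout cells, and Sdhd (0.039), Atp5a1 (0.19) and mt-Co1 (0.0027) in the palmitic acid interaction. With the length trend removed, Uqcrc1 (-0.15) reversed too. Uqcrh for oleic over palmitic acid in knockout cells also turned sign under median-ratio scaling, as given above, and is not in that count. The cause was not tested.

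Leaving out single libraries gave 68 to 70 called genes for oleic acid and 70 to 80 for palmitic acid in knockout cells, 67 to 76 and 45 to 51 in wild-type cells, 71 to 77 and 55 to 60 for oleic over palmitic acid in knockout and wild-type cells, 18 to 26 for untreated knockout over wild type, 8 to 13 for neuronal medium in knockout cells, and 2 to 6, 6 to 10 and 49 to 61 for the medium, oleic and palmitic interactions. It gave 0 to 1 for CNO and for medium of Apoe knockout neurons, and 0 to 0 in the other comparisons. Outside the CNO set numbers did not pair the libraries: same-numbered libraries correlated at -0.081 to -0.011 in the first cohort, -0.062 to 0.049 in the second and -0.40 to 0.158 in astrocytes, where 10 of 27 were closest to their own number. A replicate block gave 72, 80, 75 and 56 called genes for the fatty acids in knockout (oleic, palmitic) and wild-type cells, 76 and 61 for oleic over palmitic acid in knockout and wild-type cells, 26 for genotype, 11 for medium in knockout cells, 3, 9 and 54 for the interactions and 0 in brain. No paired analysis was possible because the libraries labelled A2aR knockdown and KA share fewer than 2 numbers, for that comparison. With TPM alone, no counting interval could be given outside the second cohort.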
